A study of Mus musculus with 38 samples.

Results

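The transcripts described here encode the chains of the interleukin-12 (IL-12) receptor, Il12rb1 and Il12rb2. They were taken as the rows whose gene symbol equals either name in the 14 RNA-seq expression tables, which makes 2 genes of 23228 listed symbols. Each symbol had 1 locus, a usable estimate in all 14 libraries, and a level high enough to enter the test across genes. The study measured RNA, and in 24 further samples that were not analysed here chromatin, in mouse helper T cells that lack or overexpress lineage-directing transcription factors. Levels are FPKM, fragment numbers scaled for transcript length and for the mapped total of the library.

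All libraries came from sorted naive CD4+ T cells of spleen and lymph nodes of C57BL/6J mice, polarized in culture toward the Th1 or the Th2 lineage. Cells without a vector were cultured for 7 days and then restimulated for 2 h on plate-bound CD3/28, with IL12 in Th1 and IL4 in Th2 cultures. The Th1 libraries of this kind were wild type (WT, 2 libraries, replicates 1 and 2), STAT4<tm1> (STAT4KO, here STAT4 KO) and Tbet<tm1> (TbetKO, here T-bet KO). The Th2 libraries were wild type and Stat6<tm1> (Stat6KO, here STAT6 KO). Among the vector libraries, Th1 cells of the WT and STAT4 KO genotypes carried a control vector or a T-bet vector. Th2 cells of the WT and STAT6 KO genotypes carried a control vector or a Gata3 overexpression vector (here GATA3 vector). Their cell type label gives 5 days of culture, while a second label on the Th1 vector samples gives 7 days and the same 2 h restimulation. For the Th2 vector samples no restimulation is named in the labels used here. Of the 13 groups, 12 had 1 library, and no label says that libraries came from separate mice or cultures, so each p-value reflects the spread among these libraries alone, which may be technical.

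IL-12 is a cytokine of dendritic cells and macrophages that directs naive CD4+ T cells to the Th1 fate. Its receptor pairs IL-12Rβ1 (Il12rb1), which binds the kinase TYK2 and is also a chain of the IL-23 receptor, with IL-12Rβ2 (Il12rb2), which binds JAK2 and provides the docking site for STAT4. Activated STAT4 induces Ifng and other Th1 genes, and Il12rb2 is known as the chain whose presence distinguishes IL-12-responsive Th1 cells from Th2 cells. In RNA from whole cultures, fewer cells that express a gene and less of its RNA per cell cannot be told apart.

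Il12rb2 was listed on the minus strand of chromosome 6 (mm9, 67242012 to 67326131, gene model ENSMUSG00000018341.6), and its longest-spanning model, Il12rb2-001, has 16 exons. Il12rb1 was listed on the plus strand of chromosome 8 (mm9, 73332348 to 73345322, ENSMUSG00000000791.7), with 16 exons in model Il12rb1-201. No listed gene overlapped either of them. The stretch before the start of Il12rb2 is shown because this chain carried the larger differences, and that of Ifng because Ifng was among the genes whose levels most resembled those of Il12rb2. Both are the 250 bases before the RefSeq start of transcription (RefSeq promoter table, GRCm38.p6), at chr6:67376189-67376438 on the minus strand and chr10:118440796-118441045 on the plus strand. Capitals mark matches on either strand to TTCNNNGAA, the palindrome that STAT factors recognise, or to TCACAC, the core of sites for T-box factors such as T-bet.
Il12rb2: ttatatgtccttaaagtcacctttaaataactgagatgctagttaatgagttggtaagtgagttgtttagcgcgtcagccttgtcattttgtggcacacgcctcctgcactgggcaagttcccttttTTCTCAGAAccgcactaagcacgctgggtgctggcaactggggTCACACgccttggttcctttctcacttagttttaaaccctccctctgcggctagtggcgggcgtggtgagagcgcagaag
Ifng: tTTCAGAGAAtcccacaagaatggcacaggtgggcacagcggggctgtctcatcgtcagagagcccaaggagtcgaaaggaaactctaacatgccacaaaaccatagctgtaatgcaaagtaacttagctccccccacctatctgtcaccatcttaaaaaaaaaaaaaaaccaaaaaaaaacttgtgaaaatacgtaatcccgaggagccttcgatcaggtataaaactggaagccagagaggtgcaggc
In Il12rb2 the TTCNNNGAA match began 123 bases before the start and the TCACAC match 80 bases before it, and they do not overlap. In Ifng the single match, to TTCNNNGAA, began 249 bases before the start. Dock9 and Hopx, other genes with levels like those of Il12rb2, have 3 and 2 starts in the table, and no match to any motif searched was found before them. Of all 32851 promoters in the table searched over the same length, 7.02% held TTCNNNGAA and 12.3% held TCACAC. No match to AGATAA, the GATA motif, was found in either sequence, against 9.99% of promoters, and none to TGANTCA, the AP-1 motif, against 6.75%. The Il12rb2 sequence occurred once on chromosome 6 of mm9, at 67326183 to 67326432, so its start lies 51 bases beyond the end of the locus in the deposited tables. Il12rb1 had no entry in that table. These matches describe letters in a window and not binding.

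Whole libraries were compared before the genes were described. Replicate 2 of WT Th1 and the T-bet KO Th1 library correlated with each other at r = 0.976 across genes but with the other 12 libraries only at 0.676 to 0.801, while those 12 correlated with one another at 0.856 to 0.990. Both had 49 or more genes with a failed estimate against at most 10 elsewhere, and the labels name no batch that sets them apart. They are called the libraries that stand apart. Some fitted changes, library pairs and correlations that rest on them are given with and without them. Ranges over the 14 libraries and orderings that involve WT Th1 are given with them only. Estimated fragments in genes ranged from 21890000 to 38520000 per library. Summed CD4 T cell markers reached 525 to 1107 FPKM in every library, while NK cell markers stayed at or below 0.194 and B cell markers at or below 1.31. Of the CD8 T cell markers, Cd8a was at most 0.21 and Cd8b1 at 1.80 to 5.65 FPKM. Of the targeted genes, Tbx21, which encodes T-bet, was at 4.18 FPKM in the T-bet KO and at 88.4 and 153 in the WT Th1 libraries without vector. Stat4 was at 6.71 to 17.5 in the 3 STAT4 KO libraries and at 37.1 to 60.8 in 3 of the WT Th1 libraries, but at 15.1 in WT Th1 replicate 2. Stat6 was at 34.6 in the STAT6 KO and 35.6 in the WT Th2 library without vector, so its level does not separate those libraries. A gene-level value can include RNA from outside a deleted part and then does not check the deletion.

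The signalling chain Il12rb2 was abundant in WT Th1 cells and nearly absent from WT Th2 cells, with STAT-deficient cells of both lineages in between. WT Th1 libraries contained 99.9 FPKM (replicate 1), 84.9 (replicate 2), 60.0 (control vector) and 64.5 (T-bet vector). WT Th2 libraries contained 0.339 FPKM without vector, 0.452 with the control vector and 0.198 with the GATA3 vector. Every WT Th1 library lay above every WT Th2 library, an ordering shown by 7.19% of the 11121 genes tested. The Th2 values rested on about 34, 42 and 19 fragments, against 6134 to 12278 fragments in WT Th1.

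The STAT4 KO Th1 and STAT6 KO Th2 libraries lay closer to each other in Il12rb2 than the WT libraries of the 2 lineages did, a comparison without a test. STAT4 KO Th1 libraries contained 6.47 FPKM of Il12rb2 without vector, 1.89 with the control vector and 6.62 with the T-bet vector. STAT6 KO Th2 libraries contained 4.68 FPKM without vector, 1.86 with the control vector and 1.03 with the GATA3 vector. The T-bet KO Th1 library, at 34.0 FPKM, lay between the WT and the STAT4 KO Th1 libraries. Between STAT6 KO Th2 and STAT4 KO Th1 cells the ratio of Il12rb2 was 0.723 without vector (0.624 to 0.839 from the intervals that Cufflinks attached to the values, which cover counting error only) and 0.986 with the control vector (0.736 to 1.32). In the control-vector pair only the Th1 library has a labelled restimulation. The 2 libraries of that pair differed by less than counting error, although 1 was labelled Th2 and the other Th1. That resemblance was not restricted to this gene. In the control-vector pair only 0.522% of genes were 2-fold lower and 0.333% 2-fold higher in STAT6 KO Th2. Across genes the STAT6 KO Th2 and STAT4 KO Th1 libraries without vector correlated at 0.981. Of all genes 0.405% were 2-fold lower and 0.207% 2-fold higher in the first. Il12rb1 differed beyond counting error in both pairs. In STAT6 KO Th2 it was 0.586 times the STAT4 KO Th1 level without vector (0.522 to 0.656) and 1.26 times with the control vector (1.18 to 1.36).

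**Figure D1:**
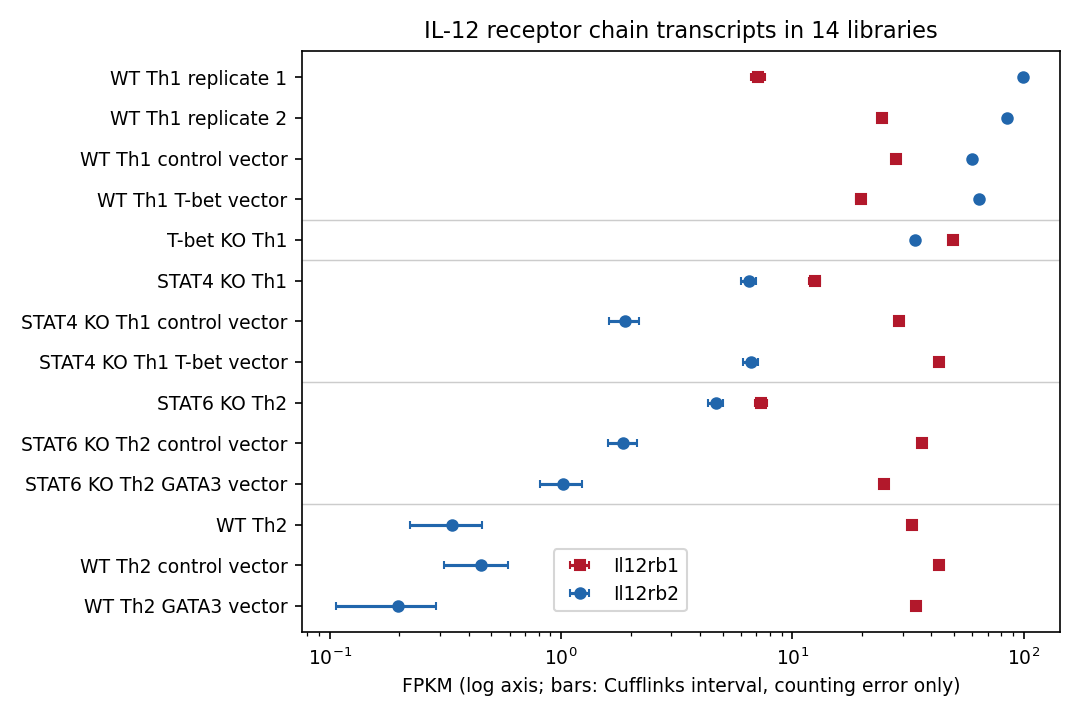
FPKM of Il12rb1 (squares) and Il12rb2 (circles) in each of the 14 libraries on a log axis, with bars for the Cufflinks interval, which covers counting error only. Il12rb2 runs from 0.198 to 99.9 FPKM and steps down from WT Th1 to WT Th2, while Il12rb1 stays between 7.14 and 49.7.

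The shared chain Il12rb1 was present in every library. Among WT libraries its order was the reverse of that of Il12rb2: the 3 Th2 libraries, at 32.9 to 43.0 FPKM, lay above all 4 Th1 libraries, at 7.14 to 28.1, as in 4.74% of genes. Over all genotypes the lineages overlapped. It was lowest in WT Th1 replicate 1, at 7.14 FPKM, in STAT6 KO Th2, at 7.33, and in STAT4 KO Th1, at 12.5, which are 3 of the libraries without vector. WT Th1 replicate 2 contained 24.4 FPKM, WT Th2 32.9 and T-bet KO Th1 49.7, the highest value. Libraries without vector therefore spanned the whole range of this gene, and the 2 WT Th1 replicates differed 3.42-fold.

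With a vector the values were closer together. WT Th1 contained 28.1 FPKM of Il12rb1 with the control vector and 19.8 with the T-bet vector, and STAT4 KO Th1 contained 28.9 and 43.2. WT Th2 contained 43.0 with the control vector and 34.3 with the GATA3 vector, and STAT6 KO Th2 contained 36.5 and 25.0. In each group of genotype and lineage the ranges of Il12rb1 overlapped with those of its WT counterpart, apart from the single T-bet KO library, which lay above all 4 WT Th1 libraries.

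In the order of levels, most neighbours of Il12rb2 were separated by more than counting error. The exceptions were STAT4 KO Th1 with the T-bet vector beside STAT4 KO Th1 without vector, the 2 control-vector STAT KO libraries, and both neighbouring pairs among the 3 WT Th2 libraries, in all 4 of 13 neighbouring pairs. For Il12rb1 the intervals of 6 of 13 neighbouring pairs overlapped. Among them, the intervals of WT Th1 replicate 1 and STAT6 KO Th2 overlapped at the bottom of the order, and those of STAT4 KO Th1 with the T-bet vector and WT Th2 with the control vector near its top. On the log2(FPKM + 1) scale, the range over the 14 libraries was 6.40 for Il12rb2, and 1.44% of tested genes had a range as wide. It was 2.64 for Il12rb1, a width reached by 15.7% of genes, against a median of 1.63 over all genes. These ranges include the libraries that stand apart, and T-bet KO Th1, which is among them, sets the upper end for Il12rb1.

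The balance of the chains can be read as the ratio of Il12rb2 to Il12rb1 within a library, since FPKM are scaled for length. In WT Th1 cells Il12rb2 exceeded Il12rb1, at 13.99 times in replicate 1, 3.47 in replicate 2, 2.13 with the control vector and 3.26 with the T-bet vector. Every other library had more Il12rb1 than Il12rb2. The ratio was 0.685 in T-bet KO Th1, and 0.517, 0.0653 and 0.153 in STAT4 KO Th1 without vector, with the control vector and with the T-bet vector. It was 0.639, 0.0510 and 0.0411 in STAT6 KO Th2 without vector, with the control vector and with the GATA3 vector. WT Th2 cells had the lowest ratios, 0.0103, 0.0105 and 0.00577 in the same order. The spread among WT Th1 libraries came mainly from Il12rb1, which differed 3.42-fold between the replicates, while Il12rb2 in replicate 2 was 0.850 times that in replicate 1.

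**Figure D2:**
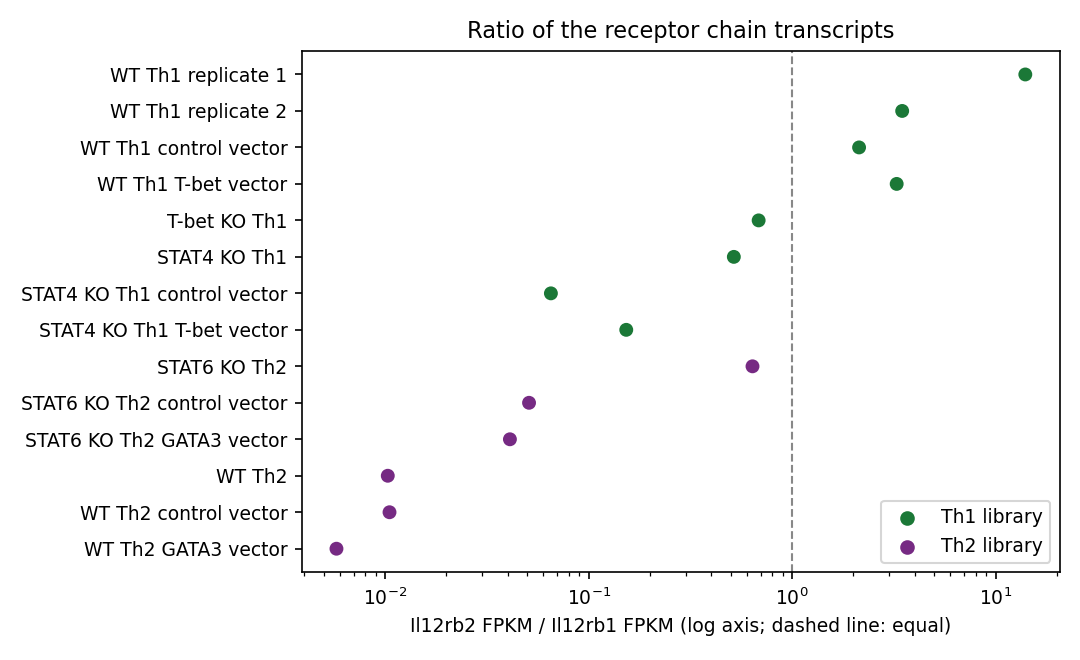
Il12rb2 FPKM divided by Il12rb1 FPKM in each library on a log axis, with the dashed line at equal levels; green, Th1 libraries, and purple, Th2 libraries. Only the 4 WT Th1 libraries lie above equality (2.13 to 13.99), and the 3 WT Th2 libraries lie lowest (0.00577 to 0.0105).

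The difference between the lineages was tested in 1 additive limma model of all 14 libraries on log2(FPKM + 1), with Benjamini-Hochberg adjustment over 11121 genes. Il12rb2 was lower in Th2 than in Th1 by a log2 change of -5.50 ± 0.33 (SE, limma adjusted p = 1.76e-04), and 2.36% of genes were called lower in this comparison. Calls split into 94 genes higher in Th2 and 263 higher in Th1, or 132 and 209 after quantile normalization. In single pairs, WT Th2 had 0.340% of the Il12rb2 level of WT Th1 replicate 1 without vector, and 0.754% with the control vector. Of the control-vector pair only the Th1 library has a labelled restimulation. The difference of -6.24 without vector was reached or exceeded downward by 6 genes, Il12rb2 included, and that of -5.39 with the control vector by 4. Against WT Th1 replicate 2 the difference was -6.00, reached downward by 115 genes. Il12rb1 was 4.61-fold higher in WT Th2 than in WT Th1 replicate 1, but only 1.35-fold higher than in replicate 2 and 1.53-fold higher with the control vector. Its fitted change of 0.92 ± 0.50 did not pass the test (limma adjusted p = 0.338) and ran from 0.44 without WT Th2 to 1.33 without WT Th1 replicate 2. Markers of macrophages and dendritic cells summed to 8.57 FPKM in the WT Th2 library without vector, of which Emr1 made 8.42, and to at most 0.300 in all Th1 libraries. Of the other markers of that list, Csf1r, Lyz2 and Cd14 stayed at or below 0.161 FPKM in every library, and Itgax at or below 3.34. Mast cell and basophil markers summed to 10.2 FPKM in that WT Th2 library, all of it from Cpa3. Their sum was at most 0.0393 in all Th1 libraries. Ms4a2, another marker of this list, stayed at or below 0.0329 FPKM in every library. The part of such cells or transcripts in the result was not tested.

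The STAT4 comparison sets Th1 cells with and without the factor that IL-12 activates side by side. Il12rb2 was lower without STAT4 in all 3 matched pairs, and Il12rb1 was not. STAT4 KO cells had 6.48% of the WT level of Il12rb2 without vector (5.89 to 7.09% for counting error), 3.15% with the control vector and 10.3% with the T-bet vector. In log2(FPKM + 1) these differences were -3.76, -4.40 and -3.10, and 1.16% of genes were at least 2-fold lower in all 3 pairs. In these pairs 17, 9 and 8 genes, Il12rb2 included, were as low or lower. The fitted change was -3.74 ± 0.30 (limma adjusted p = 0.00421), where 0.593% of genes were called lower. Without the STAT4 KO control vector library only 2 genes were called in either direction, Il12rb2 among them (-3.40). Against replicate 2 in place of replicate 1 the difference was -3.52, and 220 genes were as low or lower. All 4 WT Th1 libraries lay above all 3 STAT4 KO libraries, as in 6.28% of genes, including replicate 2, in which Stat4 was as low as in the STAT4 KO libraries. Il12rb1 in STAT4 KO cells was 1.75, 1.03 and 2.19 times the WT level without vector, with the control vector and with the T-bet vector. It was 0.512 times the level of WT Th1 replicate 2. The fitted change of Il12rb1, 0.29 ± 0.45, did not pass the test (limma adjusted p = 0.747). It ran from -0.050 without either T-bet vector library to 0.62 without WT Th1 replicate 2.

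The T-bet KO, a single library, differed from the WT Th1 libraries in both chains and in opposite directions. Its Il12rb2 level was 34.1% of replicate 1 and 40.1% of replicate 2, and Il12rb1 was 6.96 and 2.03 times the level in those replicates. Replicate 2 is the closer match in the whole transcriptome. Differences of 2-fold or more on log2(FPKM + 1) against both replicates were seen downward in 0.755% of genes, among them Il12rb2 (-1.53 and -1.29). Il12rb1 differed by 2.64 and 0.99, the second just short of 2-fold. The limma model gave -1.34 ± 0.45 for Il12rb2 and 1.99 ± 0.68 for Il12rb1, neither past the threshold (adjusted p = 0.337 for both), in a comparison that called 0.018% of genes. With a term shared by the libraries that stand apart, the values were -1.29 for Il12rb2 and 0.99 for Il12rb1 (limma adjusted p = 0.456 and 0.617), and 0.881% of genes passed. Without replicate 2 the value for Il12rb1 became 2.53 (limma adjusted p = 0.0107) where 48.7% of all genes passed, in a fit in which the T-bet KO was the only library of that kind. Set side by side, Il12rb2 stood at 34.0 FPKM with Tbx21 at 4.18 in this library, and at 6.47 FPKM with Tbx21 at 47.9 in STAT4 KO Th1 cells. Of these 2 libraries only the T-bet KO stands apart, so genotype and that split cannot be told apart here. The difference between the effects of the 2 deficiencies was not tested.

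Among STAT4 KO cells, those given the T-bet vector had more Il12rb2 than those given the control vector, and both values lay far below the WT level. With the T-bet vector Tbx21 was at 137 FPKM in STAT4 KO and 245 in WT cells, above the 35.1 and 61.0 with the control vector. Il12rb2 in STAT4 KO cells was 6.62 FPKM with the T-bet vector and 1.89 with the control vector, a ratio of 3.51 (2.82 to 4.43 for counting error). In WT cells it was 64.5 and 60.0, a ratio of 1.08 (1.02 to 1.13). The STAT4 KO library without vector contained 6.47 FPKM, and its interval overlapped that of the STAT4 KO library with the T-bet vector. The log2 difference of 1.40 between the 2 vectors in STAT4 KO cells was reached by 45 genes, Il12rb2 included, and 0.584% of genes were at least 2-fold higher in that pair. In the same libraries Ifng was at 22.6 FPKM with the control and 1739 with the T-bet vector in STAT4 KO cells, against 4074 and 5199 in WT. The T-bet vector term was 0.60 ± 0.36 for Il12rb2 and -0.03 ± 0.55 for Il12rb1 (limma adjusted p above 0.999 for both). The value for Il12rb2 ran from 0.17 without the STAT4 KO T-bet vector library to 1.07 without the WT one, and that for Il12rb1 from -0.59 to 0.55 without the same libraries. No gene passed in that comparison (0%), although 150 had an unadjusted p under 0.05. The interaction of STAT4 KO with the T-bet vector, which tests whether the vector's effect differed between genotypes, was 0.90 ± 0.62 for Il12rb2 and 1.14 ± 1.02 for Il12rb1 (limma adjusted p = 0.999), and 0.00899% of genes passed. Leaving out 1 library gave 0.50 (without the STAT4 KO control vector library) to 1.37 (without STAT4 KO Th1) for Il12rb2, and 0.71 (without WT Th1 replicate 2) to 1.53 (without replicate 1) for Il12rb1. Il12rb1 was 0.703 times the control-vector level in WT and 1.49 times in STAT4 KO cells.

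In Th2 cultures the STAT6 KO went with more Il12rb2 in all 3 matched pairs. The level in STAT6 KO was 13.8 times that in WT without vector (9.52 to 22.5 for counting error), 4.11 times with the control vector (2.69 to 6.80) and 5.19 times with the GATA3 vector (2.81 to 11.6). Every STAT6 KO library lay above every WT Th2 library, as in 8.41% of genes. The fitted change on log2(FPKM + 1) was 1.27 ± 0.32 and did not pass the test (limma adjusted p = 0.115), where 0.962% of genes were called. That scale compresses values under 1 FPKM, where all WT Th2 libraries lay. With a pseudocount of 0.1 the change was 2.40 and passed (limma adjusted p = 0.0260), as did 1.43% of genes. Among the genes that passed on the planned scale were Tbx21 (3.31 ± 0.24, adjusted p = 8.68e-04) and Il18r1 (2.96 ± 0.28, adjusted p = 0.00378), which encodes a chain of the IL-18 receptor. Tbx21 was at 24.7 to 43.7 FPKM in STAT6 KO and at 2.08 to 3.61 in WT Th2 cells. Il12rb1 in STAT6 KO cells was 0.223 times the WT level without vector, 0.848 with the control vector and 0.729 with the GATA3 vector. Its fitted change, -0.90 ± 0.48, did not pass (limma adjusted p = 0.617) and ran from -0.45 without STAT6 KO Th2 to -1.19 without the STAT6 KO control vector library. In the pair without vector, macrophage and dendritic cell markers summed to 8.57 FPKM in WT and 0.103 in STAT6 KO, and mast cell and basophil markers to 10.2 and 0.0140. Of the WT sums, Emr1 made 8.42 of the first and Cpa3 all of the second. With the control vector, where Il12rb2 was 4.11 times the WT level, the marker sums were 1.33 against 0.323 and 0.640 against 0.0540. The part of such cells or transcripts in the result was not tested.

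The GATA3 vector raised Gata3 itself, from 95.7 to 589 FPKM in WT and from 29.7 to 377 in STAT6 KO Th2 cells. Il12rb2 with that vector was 0.437 times the control-vector level in WT (0.181 to 0.923 for counting error) and 0.551 times in STAT6 KO cells (0.381 to 0.778). Il12rb1 was 0.797 and 0.684 times. Both chains were thus lower in both genotypes, but the limma terms of -0.24 ± 0.36 for Il12rb2 and -0.35 ± 0.55 for Il12rb1 did not pass (adjusted p = 0.981 for both), in a comparison that called 1.05% of genes. Without the WT GATA3 vector library they were -0.63 and -0.012, and without the STAT6 KO one 0.15 and -0.70. The interaction with STAT6 KO was -0.77 ± 0.63 for Il12rb2 and 0.69 ± 1.05 for Il12rb1 (limma adjusted p above 0.999 for both). Leaving out 1 library gave -1.31 (without the WT Th2 control vector library) to -0.24 (without WT Th2) for Il12rb2, and 0.033 (without STAT6 KO Th2) to 1.34 (without its control vector library) for Il12rb1. No gene passed it (0%), while 176 had an unadjusted p under 0.05. Mast cell and basophil markers summed to 68.8 FPKM in the WT and 45.0 in the STAT6 KO library carrying the GATA3 vector. The sums were 0.640 and 0.0540 in their control-vector counterparts. Mcpt8 made 59.2 and 42.7 of these sums, and the part of such cells or transcripts in the result was not tested.

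**Figure D3:**
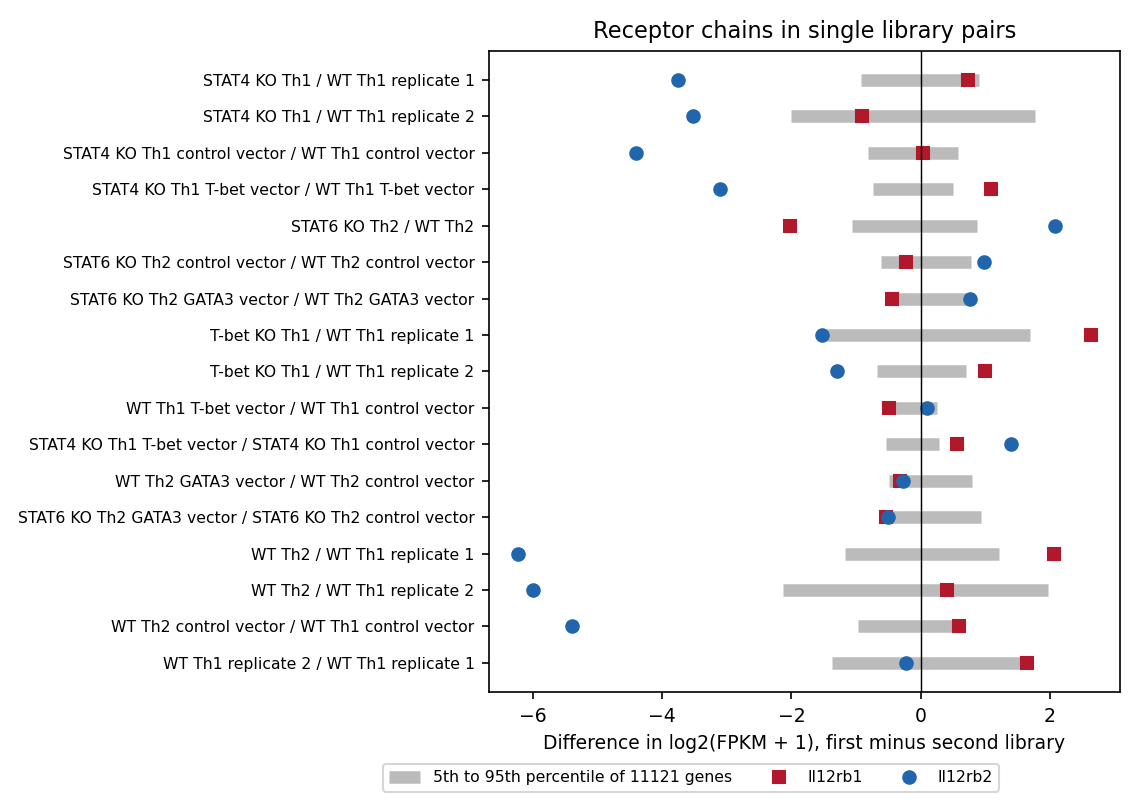
Differences in log2(FPKM + 1) between single libraries, first minus second, for Il12rb1 (squares) and Il12rb2 (circles), over gray bars that span the 5th to 95th percentile of all 11121 genes in the same pair. Il12rb2 lies far left of the bar in the STAT4 KO pairs (-3.10 to -4.40) and the Th2 over Th1 pairs (-5.39 to -6.24).

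Vector libraries differed from those without vector in many genes, 31.5% of those tested (2599 higher and 906 lower, and 1782 and 1322 with quantile normalization), and in labelled culture time. Il12rb1 was higher in the vector libraries by 1.13 ± 0.40 and Il12rb2 lower by a log2 change of -0.73 ± 0.26, neither past the threshold (limma adjusted p = 0.0593 and 0.0649). Il12rb2 was lower with the control vector than without vector in WT Th1, STAT4 KO Th1 and STAT6 KO Th2. In WT Th2 it was 0.339 FPKM without vector and 0.452 with the control vector, with overlapping intervals. Il12rb1 was higher with the control vector in each of these groups. In WT Th1 it was 28.1 FPKM, against 7.14 and 24.4 in replicates 1 and 2 without vector. With the term for the libraries that stand apart, Il12rb1 rose by 1.38 (limma adjusted p = 0.0111), with 51% of all genes passing. Leaving out 1 library also brought a chain past the threshold, Il12rb1 without WT Th1 replicate 2 (1.38, adjusted p = 0.0109, 51% of genes passing) and Il12rb2 without WT Th2 (-1.001, limma adjusted p = 0.0187, 23.6% of genes passing). Leaving out STAT4 KO Th1 with the control vector gave -0.48 for Il12rb2. Vector, culture time and restimulation cannot be told apart in this comparison.

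**Figure D4:**
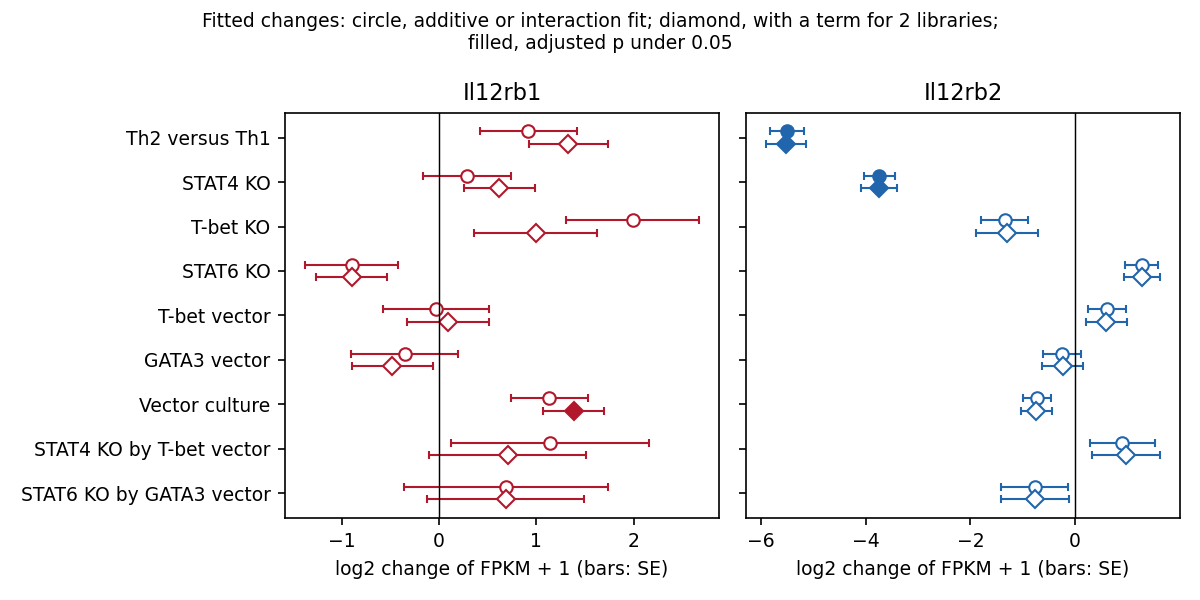
Log2 changes of FPKM + 1 with their SE from limma for Il12rb1 (left) and Il12rb2 (right), as circles for the fit without and diamonds for the fit with a term shared by WT Th1 replicate 2 and T-bet KO Th1; filled symbols have an adjusted p under 0.05. Il12rb2 passes in Th2 versus Th1 (-5.50) and STAT4 KO (-3.74) with either fit (5.26% and 2.04% of genes were called lower in the fit with the term), and Il12rb1 passes only for vector culture, in the fit with the term.

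The other genes of the pathway were taken from lists of 38 genes, of which 32 were tested. Il12a, Il12b, Il27 and Il23r stayed below the filter on low values, with at most 0.265 FPKM in any library, and Jak2 and Stat3 were left out because an estimate failed in at least 1 library. Transcripts of the IL-12 subunits, the ligand, were thus near 0 in these cultures (at most 0.0921 FPKM for Il12a and 0.0351 for Il12b), as was Il23r, the partner of Il12rb1 in the IL-23 receptor. Il23r lies 46794 bases from Il12rb2, and Serbp1, 2715 bases away on its other side, was at 63.1 to 130 FPKM. Among related subunits, Il23a, the IL-23 subunit p19, was at 0.346 to 6.48 FPKM and Ebi3, a subunit of IL-27, at 0.408 to 20.9. Il27ra, a chain of the IL-27 receptor, was at 16.6 to 35.3 and Il6st, the chain gp130 that pairs with it, at 15.2 to 178.

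Between lineages 7 of the 32 tested genes were lower in Th2 and 0 higher (2.36% and 0.845% over all genes), with a median of -0.78 against -0.04 over all genes. They were the interferon gene Ifng (-8.46), Il18r1 (-4.71), Tbx21 (-4.40), Il18rap (-3.30), the second IL-18 receptor chain, Runx3 (-2.54), a partner factor of T-bet, Il23a (-1.68) and Il6st (-1.43). In STAT4 KO 3 of 32 were lower and 0 higher (0.593% and 0.135% over all genes), namely Ifng (-5.21), the stress-induced signalling gene Gadd45g (-2.85) and Il18r1 (-1.71), with a median of -0.83 against 0.04. In STAT6 KO 3 of 32 were higher (0.432% over all genes) and 0 lower, namely Tbx21, Il18r1 and the interferon-induced factor Irf1 (2.57), with a median of -0.06 against 0.04. In T-bet KO only Tbx21 was called, with the T-bet vector none, and with the GATA3 vector only Gata3 (0.018%, 0% and 1.05% over all genes). Tbx21 and Gata3 are the genes targeted in these comparisons. Among vector libraries 4 of 32 were higher and 4 lower (23.4% and 8.15% over all genes). The higher ones were Stat5a (2.63), Stat5b (1.21), Gadd45b (0.83) and Runx1 (0.63), the lower ones Il18rap (-1.60), Il18r1 (-1.39), Ifngr1 (-1.28) and Il6st (-1.24). With the term for the libraries that stand apart, 10 were lower in Th2 (5.26% over all genes in that fit). In STAT4 KO 7 were lower and 1 higher (2.04% and 1.45% over all genes), and in STAT6 KO 4 were higher (1.66%). In the same fit 1 was lower in T-bet KO (0.378%) and 1 higher with each of the T-bet and GATA3 vectors (0.018% and 2.65%). There 4 were higher and 9 lower among vector libraries, against 35.8% and 15.2% over all genes. All these calls are from limma with Benjamini-Hochberg adjustment over all genes tested.

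The genes whose log2(FPKM + 1) most resembled that of Il12rb2 over the 14 libraries were Dock9 (Pearson r = 0.961), Ifng (0.939), Lysmd2 (0.927), Nuak2 (0.922) and Hopx (0.922). These libraries share conditions and depth, and the correlations are given as a description. Over the 12 libraries without those that stand apart, 3 of the 5, Dock9, Ifng and Hopx, were again among the closest. For Il12rb1 the closest were 1110065P20Rik (0.875), Zmiz1 (0.875), Ptma (0.874), Atp9a (0.854) and Ccdc134 (0.848), of which only Zmiz1 was again among the closest 5 over 12 libraries. The chains themselves correlated at -0.337. Il12rb2 correlated with Il18r1 at 0.885, with Tbx21 at 0.647 and with Stat4 at 0.276. Over the 12 libraries these values were -0.517 for the chains, 0.861 for Il18r1, 0.778 for Tbx21 and 0.475 for Stat4.

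**Figure D5:**
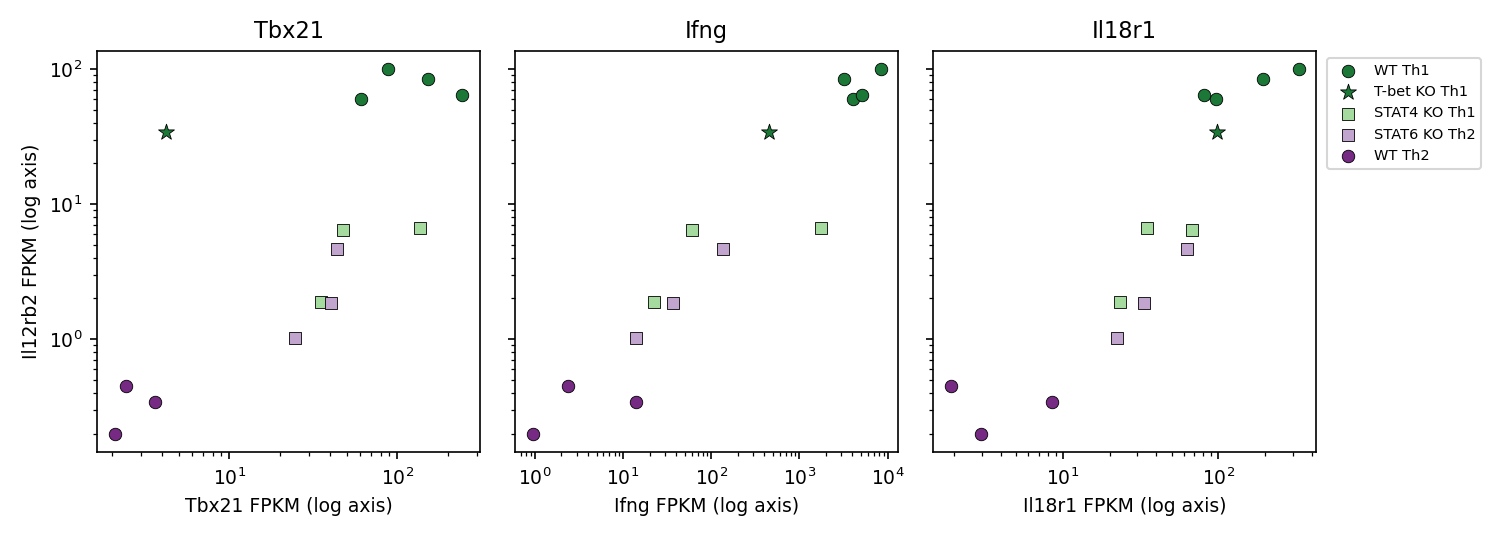
Il12rb2 FPKM against Tbx21, Ifng and Il18r1 FPKM in the 14 libraries, all axes on a log scale, with symbols by genotype and lineage. With Tbx21 the T-bet KO library (4.18 and 34.0 FPKM) lies away from the other libraries, and the STAT4 KO library with the T-bet vector has 137 FPKM of Tbx21 but 6.62 of Il12rb2. Tbx21 encodes T-bet, so its level was set by design in the T-bet KO and T-bet vector libraries. The T-bet KO library is also among the libraries that stand apart.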

How the data were processed

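RNA was measured in 14 libraries of polarized mouse CD4+ T cells (total RNA, TruSeq kit, single reads on a HiSeq instrument, per the labels' protocols). The submitters' processing notes name TopHat, Cufflinks, SICER and the build mm9, without versions. The deposited tables give FPKM per gene with an interval, per the file headers, and no counts. Tables were read with Python 3.11.15 and pandas 2.3.3. A number of fragments behind a value was estimated from the width of its interval. Intervals cover counting error only.

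Genes entered the test if 2 or more libraries reached 1 FPKM and no estimate had failed (11121 genes). Symbols listed at several loci were not excluded from the test, only from the search for the genes most like each member. The 14 libraries were fitted on log2(FPKM + 1) with limma 3.58.1 in R 4.3.3 (eBayes with trend), additively for lineage, culture with a vector, each vector (GATA3, T-bet) and each knockout (T-bet, STAT6, STAT4), with 6 residual degrees of freedom. A second fit added the interactions of STAT4 KO with the T-bet vector and STAT6 KO with the GATA3 vector (4 residual degrees of freedom). A call is a Benjamini-Hochberg adjusted p under 0.05, and the code was tested on simulated data. Single groups mostly hold 1 library, so the spread comes from the model's fit over all of them. Alternatives were a pseudocount of 0.1, no filter, quantile normalization, the term for the libraries that stand apart, and leaving out each library. Named genes are the members, receptor and ligand subunits, listed genes called in a comparison, and the 5 genes most like each member. The members and lists were chosen with earlier results of these data known, and the pairs of STAT6 KO with STAT4 KO libraries after their values were seen. The 24 chromatin samples were not analysed here.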

Additional observations from a re-analysis of the deposited data

How the results depend on the processing

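Il12rb2 kept its direction and its call in Th2 versus Th1 and in STAT4 KO under all 18 alternatives run, with adjusted p at most 0.00327 and 0.0463. Leaving out each library in turn gave -5.74 to -4.97 and -4.004 to -3.40 on the log2 scale. No paired analysis was possible because the groups compared share fewer than 2 replicate numbers. Pairs of libraries in the text are matched by culture alone. The additive fit models culture by a term shared by both lineages and all genotypes. A culture difference that varies between lineages or genotypes is not modelled and enters the spread. A pseudocount of 0.1 brought Il12rb2 in STAT6 KO past the threshold (2.40), and the term for the libraries that stand apart did so for Il12rb1 in vector culture (1.38). Leaving out WT Th1 replicate 2 brought Il12rb1 past it in T-bet KO and vector culture, and leaving out WT Th2 did so for Il12rb2 in vector culture. Over all single-library omissions these ran 1.64 to 2.53, 0.82 to 1.38 and -1.001 to -0.48. Values near 0 changed sign. Il12rb1 with the T-bet vector was 0.093 with the term and ran -0.59 to 0.55 over omissions, with 0.093, 0.15, 0.0060, 0.55 and 0.085 without WT Th1 replicate 2, STAT6 KO Th2, WT Th1 control vector, WT Th1 T-bet vector and STAT6 KO control vector. Il12rb1 in STAT4 deficiency ran -0.05 to 0.62, -0.050 without either T-bet vector library, and Il12rb2 with the GATA3 vector ran -0.63 to 0.15, positive without the STAT6 KO GATA3 vector library. The cause of these changes was not tested. For low values, depth limits precision: the 3 WT Th2 values of Il12rb2 rest on 19 to 42 fragments.

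The numbers of genes called were 357 (Th2 versus Th1), 81 (STAT4 KO), 2 (T-bet KO), 117 (GATA3 vector), 107 (STAT6 KO), 0 (T-bet vector), 3505 (Vector culture), 1 (STAT4 KO by T-bet vector), 0 (STAT6 KO by GATA3 vector). With a pseudocount of 0.1 they became 1 (T-bet KO), 59 (GATA3 vector), 0 (STAT4 KO by T-bet vector). With no filter, over 21549 genes, they became 21 (STAT4 KO), 56 (T-bet KO), 321 (GATA3 vector), 1 (T-bet vector), 93 (STAT4 KO by T-bet vector), 531 (STAT6 KO by GATA3 vector). With quantile normalization they became 1 (T-bet KO), 1 (T-bet vector). With the term for the libraries that stand apart they became 760 (Th2 versus Th1), 388 (STAT4 KO), 98 (T-bet KO), 322 (GATA3 vector), 301 (STAT6 KO), 2 (T-bet vector), 5671 (Vector culture), 2 (STAT4 KO by T-bet vector), 5 (STAT6 KO by GATA3 vector). Leaving out each library gave 111 to 742 (Th2 versus Th1), 2 to 393 (STAT4 KO), 1 to 5421 (T-bet KO), 33 to 317 (GATA3 vector), 15 to 302 (STAT6 KO), 0 to 3 (T-bet vector), 2071 to 5668 (Vector culture), 0 to 2 (STAT4 KO by T-bet vector), 0 to 12 (STAT6 KO by GATA3 vector). Adding 1 to both chains moved the ratio to 12.4 (WT Th1 replicate 1), 0.0395 (WT Th2), 0.0965 (STAT4 KO Th1 control vector), 0.172 (STAT4 KO Th1 T-bet vector), 0.033 (WT Th2 control vector), 0.0763 (STAT6 KO Th2 control vector), 0.0339 (WT Th2 GATA3 vector), 0.078 (STAT6 KO Th2 GATA3 vector). With a pseudocount of 0.1 the differences in pairs of libraries moved, without changing sign, for Il12rb2 to -3.93 (STAT4 KO Th1 over WT Th1 replicate 1), -3.69 (STAT4 KO Th1 over WT Th1 replicate 2), -4.92 (STAT4 KO Th1 control vector over WT Th1 control vector), -3.27 (STAT4 KO Th1 T-bet vector over WT Th1 T-bet vector), 3.44 (STAT6 KO Th2 over WT Th2), 1.83 (STAT6 KO Th2 control vector over WT Th2 control vector), 1.92 (STAT6 KO Th2 GATA3 vector over WT Th2 GATA3 vector), 1.76 (STAT4 KO Th1 T-bet vector over STAT4 KO Th1 control vector), -0.89 (WT Th2 GATA3 vector over WT Th2 control vector), -0.80 (STAT6 KO Th2 GATA3 vector over STAT6 KO Th2 control vector), -7.83 (WT Th2 over WT Th1 replicate 1), -7.60 (WT Th2 over WT Th1 replicate 2), -6.77 (WT Th2 control vector over WT Th1 control vector), and for Il12rb1 to 2.78 (T-bet KO Th1 over WT Th1 replicate 1). Quantile normalization shifted the median of all genes by over 0.1 only for vector culture, by -0.15.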
